A study of Homo sapiens with 3 samples.

Results

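The pyruvate dehydrogenase kinase genes PDK1, PDK2, PDK3 and PDK4 and the pyruvate dehydrogenase phosphatase genes PDP1 and PDP2 were followed through 1 list of genomic positions bound by ERRγ, the orphan nuclear receptor that the gene ESRRG encodes (estrogen-related receptor gamma). A peak was assigned to a gene when the authors' annotation named it as the gene with the nearest transcription start site (TSS), whatever the distance. By this rule 11 of the 15223 peaks belonged to 3 of the 6 genes. PDK4 had 6, PDP1 had 3, PDK3 had 2, and PDK1, PDK2 and PDP2 had none.

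The list came from the BT-474 line, human breast cancer cells with an amplified ERBB2 gene, treated with vehicle only and harvested 90 min after a change of medium. Chromatin immunoprecipitation with a custom antibody, followed by sequencing, gave 2 libraries for ERRγ, and 1 library of input DNA served as control, all of single reads of 50 bp. The deposited table merges the libraries and holds no value per library, so no spread between replicates could be given and the read depth is unknown here. Peaks give positions of binding and not expression, so neither the identity of the cells nor the level of any of the 6 transcripts could be checked.

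The pyruvate dehydrogenase complex of the mitochondrial matrix turns pyruvate from glycolysis into acetyl-CoA for the citric acid cycle. The kinases phosphorylate its E1 alpha subunit and switch the complex off, and the phosphatases remove that phosphate and switch it on, so the balance of both groups sets how much pyruvate is oxidised and how much becomes lactate. ERRs bind the sequence TCAAGGTCA and close variants of it, and with the coactivator PGC-1 alpha they are known to raise PDK4 transcription in muscle and liver cells. PDK1 and PDK3 are known targets of the hypoxia-inducible factor HIF-1.

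No peak lay over the promoter of any of the 6 genes, and the closest edge of any was 6.13 kb from a start, at PDK3. The promoter windows below, from 250 bases before to 50 bases after the annotated start in RefSeq (GRCh38.p14), are shown for 2 genes with ERRγ peaks only away from the promoter, PDK4 and PDK3, and for 2 genes of pyruvate supply whose promoters were covered by a peak, MPC1 and PKM. The PDK4 window is chr7:95596467-95596766 on the minus strand, the PDK3 window chrX:24465036-24465335 on the plus strand, the MPC1 window chr6:166382891-166383190 on the minus strand and the PKM window chr15:72231141-72231440 on the minus strand. Each is written 5′ to 3′ in the direction of transcription, and capitals mark the stretch closest to TCAAGGTCA on either strand, the leftmost where several were equally close.
PDK4: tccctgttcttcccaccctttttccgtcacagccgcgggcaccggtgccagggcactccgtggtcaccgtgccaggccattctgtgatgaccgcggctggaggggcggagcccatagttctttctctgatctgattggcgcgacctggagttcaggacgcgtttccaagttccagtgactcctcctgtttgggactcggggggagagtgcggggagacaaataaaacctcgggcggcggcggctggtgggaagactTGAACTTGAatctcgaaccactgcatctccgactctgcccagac
PDK3: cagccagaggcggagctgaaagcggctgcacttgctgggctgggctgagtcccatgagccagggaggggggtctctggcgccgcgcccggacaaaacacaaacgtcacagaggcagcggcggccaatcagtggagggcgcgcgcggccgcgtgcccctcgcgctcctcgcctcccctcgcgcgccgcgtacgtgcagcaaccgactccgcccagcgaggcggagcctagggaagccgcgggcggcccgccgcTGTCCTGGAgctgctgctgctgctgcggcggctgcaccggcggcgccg
MPC1: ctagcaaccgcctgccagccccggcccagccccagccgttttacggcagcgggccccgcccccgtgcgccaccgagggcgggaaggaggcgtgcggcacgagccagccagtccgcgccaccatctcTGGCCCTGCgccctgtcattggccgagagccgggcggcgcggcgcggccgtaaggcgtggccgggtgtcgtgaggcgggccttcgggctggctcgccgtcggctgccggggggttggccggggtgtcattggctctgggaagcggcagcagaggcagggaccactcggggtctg
PKM: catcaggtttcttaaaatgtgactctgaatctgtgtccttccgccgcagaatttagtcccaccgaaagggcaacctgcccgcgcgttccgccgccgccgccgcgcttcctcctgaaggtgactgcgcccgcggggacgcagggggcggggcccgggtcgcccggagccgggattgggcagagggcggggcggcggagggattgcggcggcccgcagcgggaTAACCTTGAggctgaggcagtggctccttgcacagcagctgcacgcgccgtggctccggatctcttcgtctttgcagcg
The capitals differ from the element at 1 base in PDK4 and PKM, 2 in PDK3 and 3 in MPC1. In all 4 they lie on the opposite strand. These 4 windows are examples, and they cover only part of the MPC1 and PKM peaks. They cannot show whether the match differs between promoters with and without a peak. Of 35116 promoter windows in the table, 5.84% held a match with at most 1 mismatch, 46.2% with at most 2 and 97.4% with at most 3. Windows were found for 5 of the 6 genes, 8 in all because PDK1 and PDK2 have alternative starts. None of the 8 held the exact element TCAAGGTCA (0.353% of all windows), the looser TNAAGGTCA (0.951%), its core AAGGTCA (3.92%, a count that includes the longer forms) or the inverted repeat of GGTCA with a spacer of 3 bases (0.057%), on either strand. No match says only that these letters are absent from these windows. The peak sequences themselves were not analysed here, as the peaks are placed on the hg19 build.

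At the level of genes, 2 of the 6, PDK3 and PDK4, had a peak within 10 kb of the TSS (33.3%, exact 95% Clopper-Pearson interval 4.33 to 77.7), against 11.5% of 20033 protein-coding genes. Within 1 kb there was none (0 of 6, interval 0 to 45.9%), against 4.16% of all genes. PDP1 joined within 50 kb, so that 3 of 6 (50.0%, interval 11.8 to 88.2) had a peak, against 22.6% of all genes at that distance and 29.6% at any distance, where the count was again 3. With only 6 genes each interval includes the share of all genes. These intervals cover counting error only.

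**Figure D1:**
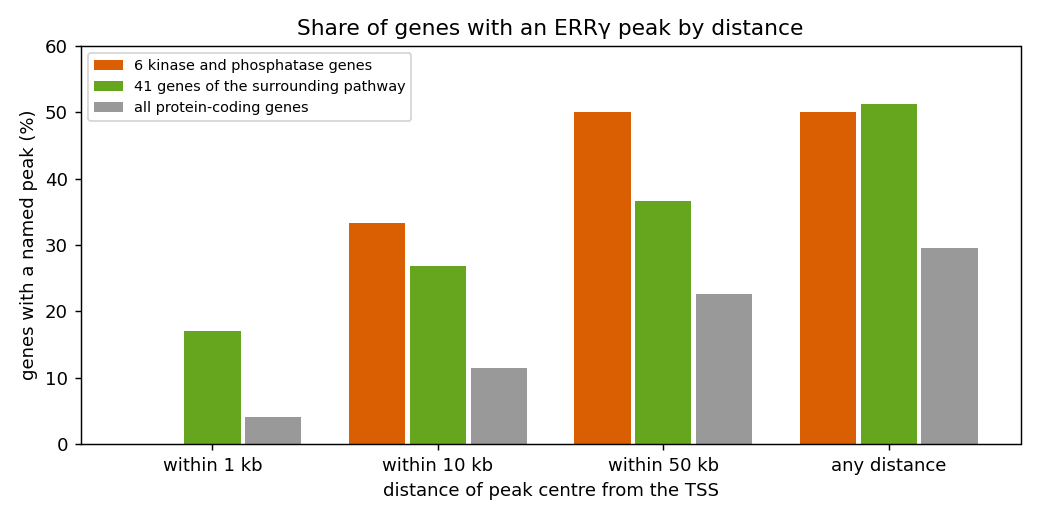
Share of genes (%, vertical axis) with an ERRγ peak named for them, by the largest distance allowed between peak centre and TSS, for the 6 kinase and phosphatase genes, 41 genes of the surrounding pathway and all protein-coding genes. None of the 6 genes had a peak within 1 kb, where 17.1% of the pathway genes and 4.16% of all protein-coding genes had one. The exact interval for the 6 genes, 0 to 45.9%, takes in both shares.

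The peaks within 10 kb of the PDK3 and PDK4 starts both scored below the median of the list. The authors' peak score, a number without a stated unit that served here only to order peaks within this list, had a median of 106 and limits of 50 and 3227. With only the upper 50% of peaks by score, or only the upper 10%, none of the 6 genes had a peak within 10 kb, against 7.24% and 1.83% of all protein-coding genes. Among the 2301 protein-coding genes with a peak within 10 kb, PDK3 ranked 1529 by its strongest such peak. PDK4 ranked 1758, between TNFSF15 with 79.75 and BPIFA2 with 79.5. The neighbours of PDK4 mark the place in the order of scores and nothing more.

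Among the kinases, PDK4, the isoform that fasting and fatty acids are known to raise, carried the strongest peak of all 6 genes, and it lay 48.5 kb downstream of the TSS, past the end of the gene. This peak covered chromosome 7, 95176609 to 95178201 (hg19), and scored 1296. It ranked 609 of 15223, above 96.0% of all peaks and above 95.6% of the 4416 peaks lying 10 to 50 kb from a TSS. The authors' annotation was intergenic, within L1ME2, an old element of the LINE-1 family of retrotransposons. It ranked 39 among 2130 peaks in LINE elements, whose median score was 82.6.

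A weaker peak followed it at a gap of 678 bp, at 46.2 kb from the TSS (95178879 to 95180504), with a score of 180. The nearest peak to the promoter lay at 9.52 kb, in exon 10 of 11 (95215844 to 95216966), and scored 79.6. Its closer edge was 8.96 kb from the start. Upstream, a pair of peaks lay at -14.6 kb (95239750 to 95241309, score 183) and -16.9 kb (95242236 to 95243401, score 191), separated by 927 bp, and the latter was annotated within the LINE element L1PA13. The outermost lay at -72.3 kb (95297662 to 95298805) with a score of 70.0. The PDK4 peaks thus fell into a downstream pair, an upstream pair and 2 single peaks. The strongest ranked 609 of the 15223 peaks by score, and the next, at -16.9 kb, ranked 4489.

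Of the 11 peaks, the 4 in these PDK4 pairs had another peak at a gap of 1 kb or less (36.4%), against 6.71% of all peaks. The limit of 1 kb was chosen after the data were seen, and no 2 of the 11 peaks lay within 500 bp of each other. The strongest PDK4 peak had 3 other peaks with centres within 50 kb of its own, where the median peak had 1 and 16.3% of all peaks had at least as many. A count of 6 peaks or more was reached by 1.92% of protein-coding genes (PDK4 alone among the 6), and by 6.48% of the 5937 that had any. This count grows with the room around a gene. The nearest genes on either side that also had a peak, ASB4 and DYNC1I1, start 110.7 kb and 175.9 kb from the PDK4 start, placed from the distances in the table. The strongest peak was 62.2 kb from the ASB4 start, against 48.5 kb from that of PDK4, so its assignment rests on a difference of distance and on no measured contact. The only peak named for ASB4 scored 54.2 and was 89.4 kb from the PDK4 start.

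**Figure D2:**
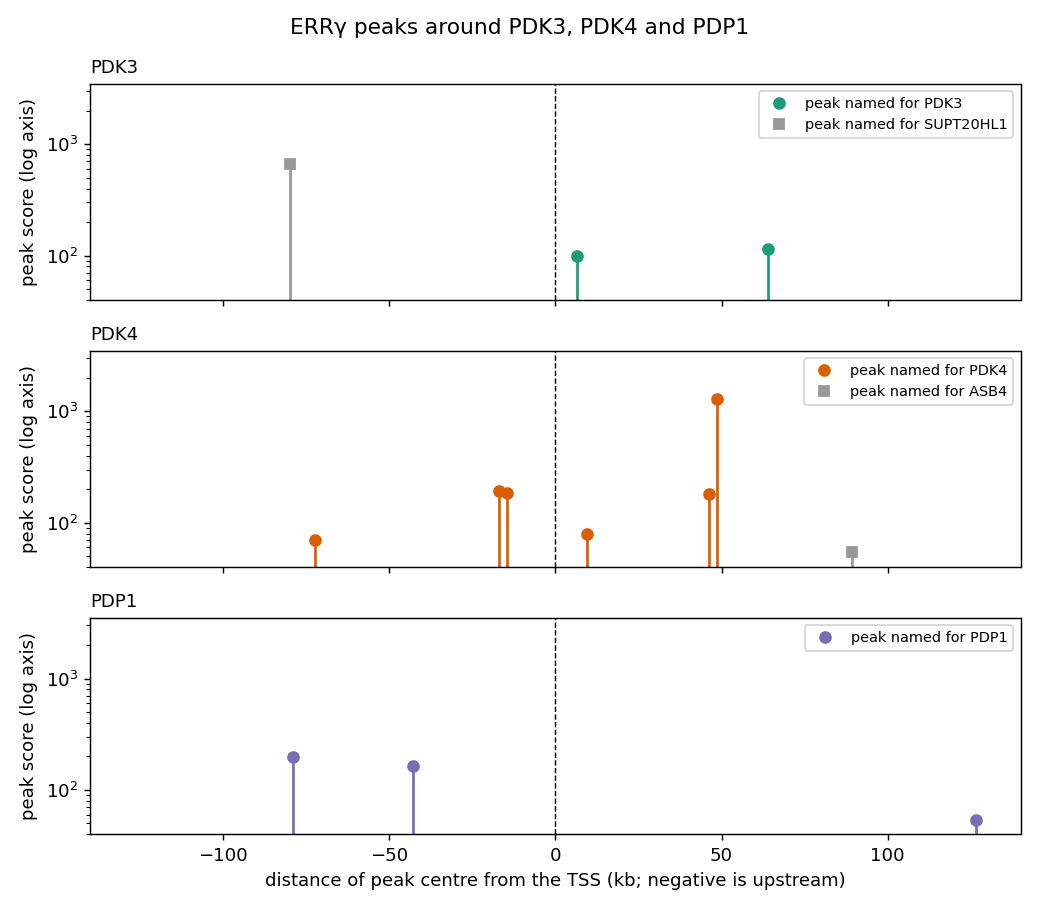
Score of each ERRγ peak (vertical axis, logarithmic) against the distance of its centre from the TSS in kb, with negative values upstream, for PDK3, PDK4 and PDP1. Circles are peaks named for the gene and grey squares other peaks within 100 kb of its start; the PDK4 peak of 1296 at 48.5 kb stands above the other 10 named peaks, which lie between 53.5 and 199.5, and none lies at the dashed line of the start.

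PDK3, the kinase known for its high activity and its weak inhibition by pyruvate, had 2 peaks, both within the gene. The closer, in intron 1 of 11 at 6.64 kb (chromosome X, 24489472 to 24490489), scored 99.4 and was annotated within the LINE element L1MC4a. The other, in intron 9 of 11 at 64.1 kb (24546923 to 24547924), scored 113. Both sat close to the median of the list, above 46.5% and 52.8% of all peaks. The strongest peak within 100 kb of the PDK3 start belonged by name to the neighbouring SUPT20HL1 (FAM48B1 in the table), at -79.7 kb with a score of 668. It scored higher than both PDK3 peaks and is not counted for PDK3 because another start is nearer.

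PDK1 and PDK2 had no peak, and no peak under any other name was annotated to a transcript of either gene. PDK1 lies between ITGA6 and RAPGEF4 in the gene order, and the last ITGA6 peak and the first RAPGEF4 peak were 408 kb apart with none between them; 11.8% of the gaps between neighbouring peaks were longer. ITGA6, an integrin gene, had peaks of 65.0 and 85.2 at 4.10 and 7.50 kb, and RAPGEF4 had 1 of 163 at 22.6 kb. PDK2, the most widely expressed kinase, lay in a far longer empty stretch of chromosome 17. From the CDK5RAP3 peak, which scored 2595, to the SAMD14 peak, which scored 95.1 at -3.08 kb, 2142 kb held no peak at all. Of the gaps between neighbouring peaks, 0.526% were longer, and the median gap was 73.8 kb. These shares count gaps and not genes. A gene is more likely to lie in a long gap than in a short one, so they do not measure how unusual the position of a gene is. The 40 protein-coding genes between CDK5RAP3 and PDK2, the HOXB cluster among them, lie in this same stretch. Their lack of a peak follows from it and adds no separate observation. Over all protein-coding genes, 29.6% had a peak at any distance.

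Among the phosphatases, PDP1, the calcium-stimulated form, had only distant peaks. The strongest lay at -79.1 kb (chromosome 8, 94849217 to 94850693) and scored 199.5, above 71.7% of all peaks. The next lay at -42.8 kb (94885653 to 94886930) with a score of 165, annotated within the LTR element MER41B. The last lay at 126.7 kb downstream (95056026 to 95057434) and scored 53.5, above only 5.87% of all peaks. All 3 were intergenic, and no other peak lay within 100 kb of the PDP1 starts. PDP2, the form that insulin is known to regulate, had none. It lies between CMTM3 and HSD11B2, whose nearest peaks enclosed 786 kb without a peak. Longer gaps made up 4.21% of all gaps, a share of gaps and not of genes.

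The 11 peaks had a median score of 165, with limits of 53.5 and 1296, against a median of 106 over all peaks, and 7 of the 11 were in the upper 50%. Only the PDK4 peak of 1296 was in the upper 10%, which put 1 of the 6 genes there at any distance, against 5.84% of all protein-coding genes. Without the PDK4 peaks the median was 113. By position 8 were intergenic (72.7%, against 51.9% of all peaks), 2 intronic (18.2%, against 41.6%) and 1 exonic (9.09%, against 0.795%). Of the 11 peaks, 7 lay within 50 kb of the TSS (63.6%, against 48.5%), and the median distance was 46.2 kb, against 53.4 kb.

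Base composition was closer to that of distal peaks than to that of promoter peaks. The GC content ran from 32.9% to 45.4% with the median fraction at 0.410, between the 0.395 of peaks beyond 10 kb and the 0.540 of the 917 peaks within 1 kb of a TSS. The CpG content stayed between 0.321% and 1.40%, with the highest values in the PDK3 peak of intron 9 and the PDK4 peak at 46.2 kb. The strongest PDK4 peak was AT-rich, with a GC content of 33.9%, below which lay only 13.4% of all peaks. Of the 609 peaks that scored at least as high, 25 had a GC content as low or lower, itself included.

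The mean conservation per peak, which the header places between 0 for low and 1 for high, had a median of 0.19 over the 11 peaks, against 0.07 over all peaks. Of these, 8 were above that median (72.7%, against 46.2% of all peaks, the values being rounded). The highest, 0.38, belonged to the weak PDK4 peak at -72.3 kb and exceeded 96.6% of all peaks. The upstream PDK4 pair had 0.19 and 0.23 and the exonic peak 0.21. The strongest PDK4 peak had 0.04 and the strongest PDP1 peak 0.01, below the median of the list. The strongest peaks of PDK4 and PDP1 were therefore among the least conserved of the 11. PDK3 went the other way, with 0.23 for its stronger peak and 0.02 for its weaker one. The order of scores did not follow that of conservation.

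**Figure D3:**
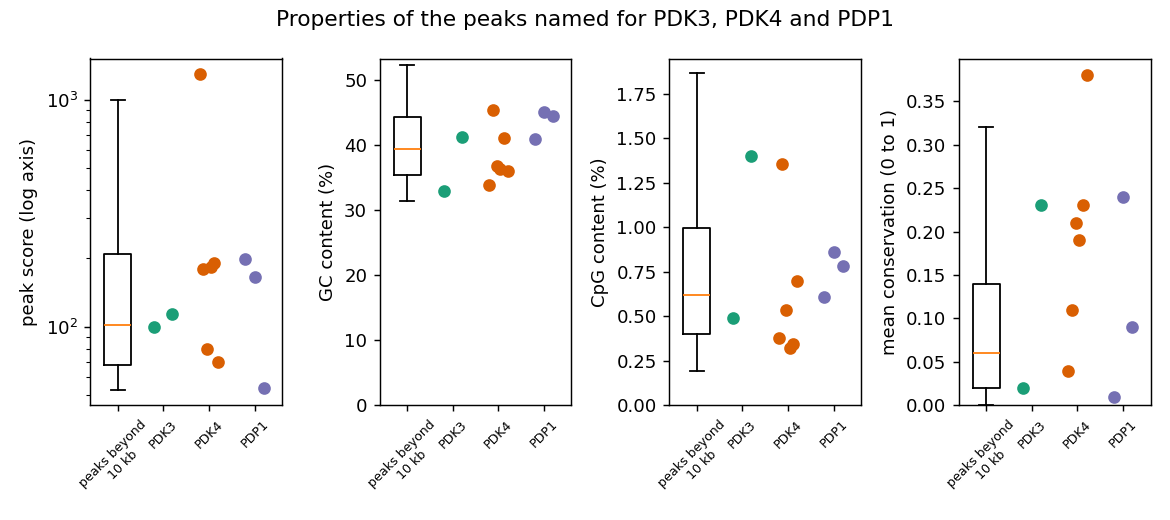
Peak score (logarithmic axis), GC content (%), CpG content (%) and mean conservation (0 to 1) of the peaks named for PDK3, PDK4 and PDP1, 1 point per peak. The box gives the median and quartiles of all peaks beyond 10 kb from a TSS and the whiskers their 5% and 95% quantiles; the PDK4 peak of 1296 lies above the upper score whisker and the PDK4 peak with a conservation of 0.38 above that of conservation.

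Around these regulators, 41 genes of 7 lists were read in the same way. Within 10 kb, 11 of the 41 had a peak (26.8%, exact interval 14.2 to 42.9), and within 1 kb 7 had one (17.1%, 7.15 to 32.1), against the 11.5% and 4.16% of all genes. Both intervals cover counting error only. The lists were chosen with earlier results of these data known, so a difference from all genes was not tested. The substrate of the regulators, the pyruvate dehydrogenase complex, had 2 of 6 genes with a peak within 10 kb, both at the promoter. DLAT, the E2 subunit, scored 108 at 468 bp, and DLD, the E3 subunit, 53.6 at 171 bp. The DLAT score was close to the median of the list and the DLD promoter score near its lower limit. DLD also had a stronger peak of 74.5 at -33.7 kb. PDHA2, the testis form of the E1 alpha subunit, had 1 peak, at -78.3 kb with a score of 397. PDHA1, whose product the kinases phosphorylate, PDHB and PDHX had none, nor did PDPR, the regulatory subunit of the phosphatase.

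The carriers that bring pyruvate into mitochondria had stronger peaks at their starts than DLAT and DLD. MPC1 (BRP44L in the table) scored 586 at -466 bp, with a peak reaching from -1130 to 198 bp, distances that take in those of the printed window. MPC2 (BRP44) scored 1037 at 1076 bp, with a peak reaching from -719 to 2871 bp. MPC1L, a testis form, had none. Of lipoate synthesis and transfer, which supply the cofactor of the complex, LIPT2 had a peak of 91.6 at -21.4 kb, and LIAS and LIPT1 had none.

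Other enzymes that make or use pyruvate had 4 of 9 genes with a peak within 10 kb (44.4%, exact interval 13.7 to 78.8), against 11.5% of all protein-coding genes. This list too was chosen with earlier results known, and the difference was not tested. PKM (PKM2 in the table), the pyruvate kinase, scored 863 at 41 bp, and its peak reached from -661 to 743 bp. LDHA, which reduces pyruvate to lactate, had a promoter peak of 122 at -203 bp and a stronger one of 723 at -10.3 kb. The alanine aminotransferase GPT2 scored 353 at -7.67 kb, and the malic enzyme ME3 273 at -1.57 kb with a stronger peak of 518 at -33.9 kb. LDHB, PC, GPT, ME1 and ME2 had none.

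The related branched-chain keto acid dehydrogenase system has its own kinase and phosphatase. None of its 5 genes had a peak within 10 kb (exact interval 0 to 52.2%), against 11.5% of all protein-coding genes. Its phosphatase PPM1K had 4 peaks between -36.1 and 42.4 kb, the strongest scoring 392 at -36.1 kb, and the subunit gene BCKDHB had 2 in its intron 3 of 9, with 216 at 37.1 kb the stronger. The kinase BCKDK, BCKDHA and DBT had none.

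Of 14 genes for factors known to act on PDK transcription, 3 had a peak within 10 kb (21.4%, exact interval 4.66 to 50.8), against 11.5% of all protein-coding genes. ESRRA, which encodes ERRα, scored 3100 at -250 bp, NR3C1, the glucocorticoid receptor, 306 at 1025 bp, and ESRRG 51.9 at -581 bp. The strongest NR3C1 peak scored 335 at -72.1 kb, and the strongest ESRRG peak 333 at -43.6 kb. At greater distances HIF1A was named for a peak of 3112 at -168.4 kb that the annotation placed in an intron of another transcript, MYC for 723 at -67.4 kb, PPARGC1A for 560 at -248.1 kb and ESRRB for 434 at 75.4 kb. PPARG and PPARD, receptors of fatty acids, had peaks of 73.6 at 54.1 kb and 52.4 at 54.5 kb. PPARA, RXRA, FOXO1, FOXO3 and PPARGC1B had none.

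Set beside these genes, the strongest PDK4 peak was above the strongest peaks of PKM, MPC1 and MPC2 in score, while lying 48.5 kb from its start against 1.08 kb or less. It was below the strongest peaks of ESRRA (3100 at -250 bp) and HIF1A (3112 at -168.4 kb). All 5 peaks of PDK3 and PDP1 scored below both carrier peaks. As 158 peaks share a score of 3100, the upper end of the scale does not order peaks, and the PDK4 peak lies below that tie.

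**Figure D4:**
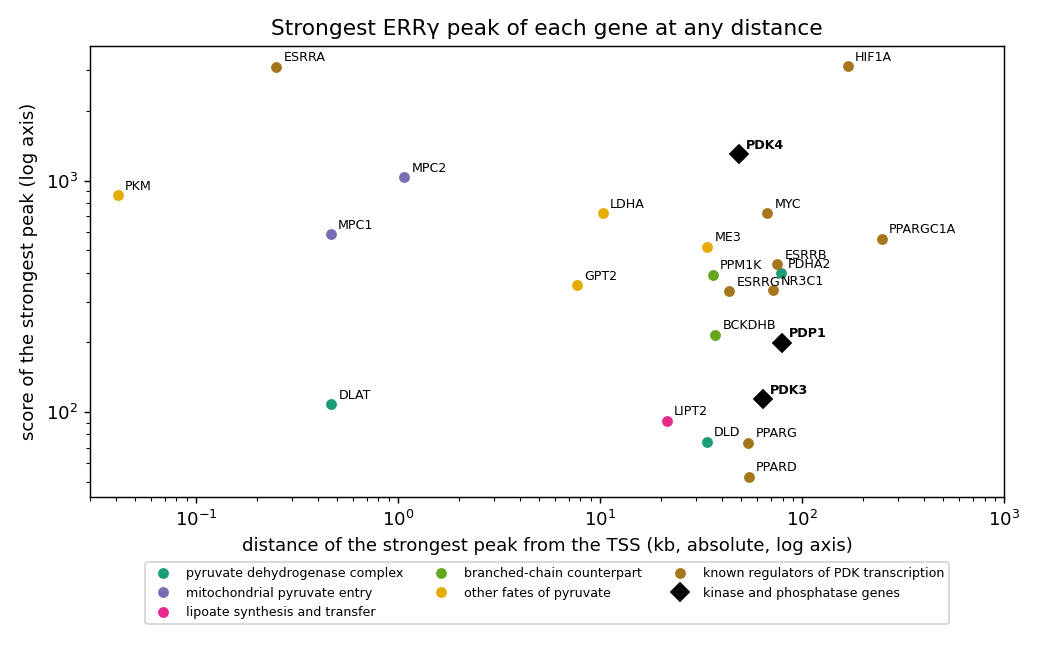
Score of the strongest ERRγ peak of each gene at any distance (vertical axis, logarithmic) against its absolute distance from the TSS in kb (horizontal axis, logarithmic), for the 3 kinase and phosphatase genes with a peak (black diamonds) and the 21 pathway genes with a peak (circles, coloured by list). PDK4, PDP1 and PDK3 lie between 48.5 and 79.1 kb, as do PDHA2, NR3C1, MYC, ESRRB, PPARG and PPARD. PKM, MPC1, MPC2, DLAT and ESRRA lie within 1.08 kb of the start, and HIF1A and PPARGC1A lie farther out than all of these.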

How the data were processed

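ERRγ chromatin immunoprecipitation of BT-474 cells was analysed from 1 deposited table of merged peaks. The submitters' processing notes name hg19 and the programs HOMER 3.18, BWA 0.5.9 and MACS 1.4.1 without their roles. Thresholds, read filters and any pooling of reads are not given in the sources used. No unit is stated for the deposited peak score. The deposited GC and CpG values are fractions and the deposited conservation is a mean score, both from 0 to 1, per the file headers and values; GC and CpG are printed partly as percent.

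Peaks were taken by gene name for the 6 genes and by gene identifier for all other genes; 15152 peaks (99.5%) had an identifier in the RefSeq gene table (GRCh38.p14), which gave symbols, biotypes and gene order only. Widths, gaps and starts were computed in hg19 from the peak positions and signed distances. Ranks, shares, exact intervals and motif matches were computed with Python 3.11.15, pandas 2.3.3 and scipy 1.17.1; counting and the motif search were tested on simulated data. No test was run, because the merged table holds no value per library and the genes and lists were chosen with earlier results of these data known. Genes named are the 6 genes, the 41 pathway genes, the neighbours of PDK4 in score, and flanking genes; the neighbours of PDK3 in score are not reported here. Alternatives varied the distance, the score, the merging of peaks and the genes included.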

Additional observations from a re-analysis of the deposited data

How the results depend on the processing

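The count of 2 kinase and phosphatase genes with a peak within 10 kb became 0 within 1 kb, 0 with the upper 50% of peaks and 0 with the upper 10%. It was 3 within 50 kb or at any distance, and 2 when annotated transcripts or any peak within 10 kb of a placed start also counted. Of the 41 pathway genes, 11 within 10 kb became 7 within 1 kb, 21 at any distance and 3 with the upper 10% of peaks. The 11 peaks became 7 with the upper 50% of peaks and 1 with the upper 10%. They remained 11 when peaks within 500 bp were merged and became 9 at 1000 bp, a gap chosen after the data were seen. Their median score of 165 was 199.5 with the strongest peak of each gene, 89.5 within 10 kb, 180.1 without PDK3, 113 without PDK4 and 147 without PDP1. The share of promoter windows with AAGGTCA was 2.03% on the given strand alone. No paired analysis was possible because the table holds no value per library, and for the same reason no library could be left out. Depth is unknown, so a gene without a peak may be bound below the authors' threshold. A nearest-start name misses genes that share a peak.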
